A study of Homo sapiens with 4 samples.

Results

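The genes described here are 56 mitosis and G2/M phase genes: mitotic kinases and cyclins, parts of the spindle, the kinetochore and the spindle checkpoint, and proteins of chromosome separation and cytokinesis. They were taken by symbol from a list and not by any measured value, though the list was chosen with earlier results of these data known. All 56 symbols had a row in the deposited table, and CKS1B had 2 rows, so the members are 57 of 57815 rows. Expression is given as FPKM, a fragment count scaled to gene length and library size, so levels can be compared between genes.

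The study sequenced 4 libraries of polyadenylated RNA from AGS and MKN1, established human cell lines derived from gastric carcinomas. In each line 1 culture labelled wild type received a scrambled control small interfering RNA (siScramble) and 1 labelled HOXB9 knockdown received an siRNA against HOXB9 (siHOXB9), a homeobox transcription factor. All 4 cultures were transfected with Lipofectamine 2000, so the controls carry the transfection too. The sources used here do not give the siRNA sequences or the time from transfection to harvest. The series names the search for HOXB9 target genes as its purpose. There was 1 library per line and siRNA, so no difference within a line has a replicate check, and the lines are the only repeat of the knockdown.

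A few facts of the libraries bear on all values. Depth was estimated at 10610000 to 12970000 fragments per library, and the member with the fewest fragments in any library, CDC25C, rested on about 101. HOXB9 itself was at 27.0% of its control level in AGS and at 19.1% in MKN1, where the control level was 1.14 FPKM. Of 6 epithelial markers, all 6 reached 1 FPKM in AGS and 5 in MKN1, where CDH1, encoding E-cadherin, was at 0.0752 FPKM with siScramble and 0.285 with siHOXB9. With siScramble EPCAM and KRT19 were at 2.14 and 2.02 FPKM in MKN1, against 328 and 838 FPKM in AGS. The leukocyte markers PTPRC and CD3E were at or near 0 in all 4 libraries, CD68 was at 12.02 and 12.72 FPKM in MKN1, and LYZ, which gastric epithelium can also express, was at 2197 FPKM with siScramble and 2163 with siHOXB9 in AGS. Of 6 fibroblast markers, 1 and 2 reached 1 FPKM in AGS and 5 and 3 in MKN1, with siScramble and siHOXB9 in that order. COL1A2 was at 0 throughout, and the summed level of the list was 16.2 and 30.7 FPKM in AGS and 59.1 and 72.6 FPKM in MKN1, in the same order. The endothelial marker CDH5 was at 0 in AGS and at 1.95 and 0.856 FPKM in MKN1. What part these signals have in the results below was not tested.

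Dividing cells make most of these transcripts in a wave that begins in late S phase and peaks in G2 and M. The MuvB core with B-MYB, followed by FOXM1, activates the wave, and the DREAM complex represses the same promoters in resting cells through a short element near the transcription start, the cell cycle genes homology region (CHR), often together with upstream CCAAT boxes bound by NF-Y. Some of the proteins are marked for removal, during and after mitosis, by the anaphase-promoting complex, a ubiquitin ligase. In bulk RNA, fewer cells in G2 or M and less of these transcripts per cell cannot be told apart.

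The promoters of the members shared features that the choice of symbols did not use. RefSeq promoters on GRCh38.p14, covering 250 bases before to 50 bases after each annotated start, matched 48 of the 56 members. AURKA, TPX2, TTK, BUB3, UBE2C, BIRC5, RACGAP1 and FOXM1 were not matched. The letters of the CHR, TTTGAA on either strand, occurred in at least 1 promoter of 35 of the 48 members (72.9%), against 18.2% of all 27305 genes of the promoter table and 13.5% of 8764 genes with at least 1 FPKM in AGS. The CCAAT letters on either strand occurred in 40 members (83.3%), against 39.7% of all genes, and both sets of letters in 31 members (64.6%), against 7.26% of all genes. A CHR match began between 50 bases before and 10 bases after the start in 24 of 48 members (50%), against 3.96% of all genes. Related genes held some of these letters too. Of 73 matched genes from 6 other mitosis lists described below, 35.6% held the CHR letters, 52.1% the CCAAT letters and 15.1% both. The CCAAT letters also occurred in 19 of 32 matched S phase genes (59.4%).

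The following windows show these letters in the 100 bases before the start, 5′ to 3′ on the gene's strand, with CHR and CCAAT letters of either strand in capitals. They were chosen, among windows in which GENCODE release 29 annotates no exon, to show promoters with both sets of letters, with 1 and with neither. ESPL1 (chr12:53268199-53268298, plus strand), KIF11 (chr10:92593030-92593129, plus strand), CKS2 (chr9:89311095-89311194, plus strand) and MKI67 (chr10:128126424-128126523, minus strand) hold both. KIF20B (chr10:89701490-89701589, plus strand) holds a CCAAT match alone in this window, and TACC3 (chr4:1720531-1720630, plus strand) holds neither. GENCODE release 29 starts the TACC3 gene further downstream, at chr4:1721490, and the bases next to that start were not searched. The TACC3 window therefore describes the RefSeq start only.
ESPL1: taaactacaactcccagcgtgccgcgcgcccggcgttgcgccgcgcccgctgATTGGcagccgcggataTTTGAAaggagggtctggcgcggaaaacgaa
KIF11: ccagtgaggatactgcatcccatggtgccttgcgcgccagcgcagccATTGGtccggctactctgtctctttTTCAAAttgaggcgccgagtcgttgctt
CKS2: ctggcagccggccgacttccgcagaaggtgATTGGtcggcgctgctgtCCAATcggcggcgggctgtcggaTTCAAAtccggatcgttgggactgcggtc
MKI67: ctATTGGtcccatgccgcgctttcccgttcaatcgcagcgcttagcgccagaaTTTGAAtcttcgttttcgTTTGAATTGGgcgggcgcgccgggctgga
KIF20B: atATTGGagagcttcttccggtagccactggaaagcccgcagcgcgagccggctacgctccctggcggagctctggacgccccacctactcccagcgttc
TACC3: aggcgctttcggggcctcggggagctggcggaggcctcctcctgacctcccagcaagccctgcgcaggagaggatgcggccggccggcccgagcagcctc
In the first 4 of these windows the CHR letters nearest to the RefSeq start begin 31, 28, 29 and 29 bases before it. GENCODE release 29 starts KIF11 further downstream, at chr10:92593286, and MKI67 further downstream on its strand, at chr10:128126385. In MKI67 the CHR and a CCAAT match on the other strand overlap by 1 base.

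**Figure D1:**
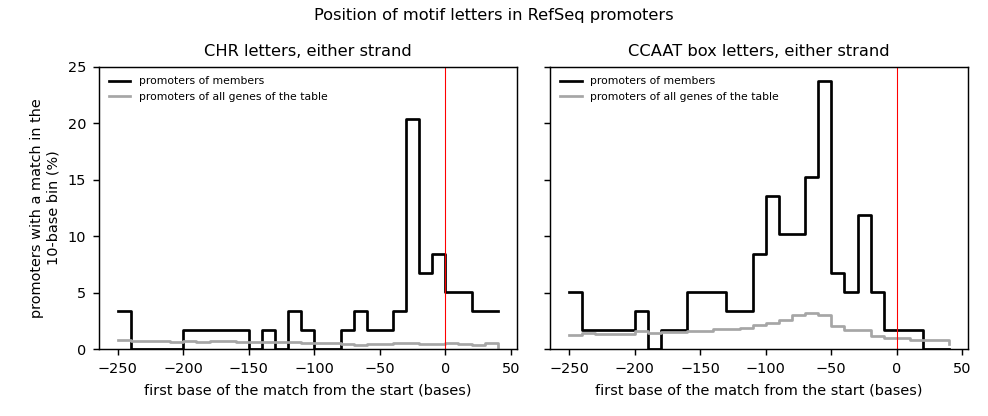
Share of promoters with a match beginning in each 10-base bin (y axis, percent) against distance from the annotated start in bases (x axis), for the CHR letters (left) and the CCAAT letters (right), in promoters of members (black) and of all genes of the table (grey). The members' highest CHR bin begins 30 bases before the start and holds 20.3% of their promoters, and their highest CCAAT bin begins 60 bases before it and holds 23.7%.

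Letters of other factors were searched in the same promoters. An E2F-type motif, TTTNNCGC on either strand, was found in 6 members (12.5%), in 8.23% of all genes and in 13.2% of genes with at least 1 FPKM in AGS, and in 19 of 32 matched S phase genes (59.4%). Among those 32 S phase genes 1 held the CHR letters. A posterior HOX-type motif, TTTANGAC on either strand, was found in 1 member (2.08%) in 2.65% of all genes and in 2.15% of genes with at least 1 FPKM in AGS. These are matches of letters and not binding sites.

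In AGS all 57 rows were lower with siHOXB9. A row counts as measured in a line at 1 FPKM or more in either library, and its change is log2 of siHOXB9 over siScramble after adding 1 FPKM to both, the scale on which every 2-fold rule below is applied. Among the 13252 rows measured in AGS 57.0% were lower. The members' median change was -0.87, against -0.06 for all measured rows. At -0.5 or below were 51 of the 57, and 1493 of all 13252 measured rows. By a size rule of at least 2-fold, 13 members were lower and none higher, where 2.21% of all measured rows were lower. The 13 were BIRC5, CDC20, PLK1, KIF2C, KIF20B, AURKB, SGOL2, CENPA, KIF20A, BUB1B, NUF2, FOXM1 and the second CKS1B row. With libraries rescaled to a common total, BUB1B, NUF2 and FOXM1 were no longer among them and 10 remained. The members together made up 0.427% of summed FPKM with siScramble and 0.258% with siHOXB9.

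In MKN1 45 of the 57 rows were lower with siHOXB9, against 36.9% of 13122 measured rows, but by less. The median change was -0.21, against 0.09 for all measured rows. At -0.5 or below were 3 of the 57, and 901 of all 13122 measured rows. No member was lower by the 2-fold rule, where 1.94% of measured rows were, and the second CKS1B row alone was higher by it, where 2.10% of measured rows were. The members' share of summed FPKM was 0.521% with siScramble and 0.447% with siHOXB9. The background moved with the scaling: with libraries rescaled to a common total, 46.0% of measured rows were lower in AGS and 46.3% in MKN1, beside all 57 members in AGS and 47 in MKN1. In both lines 45 of 57 members were lower as deposited, against 23.9% of 11547 rows measured in both. The median change of all measured rows was also higher in MKN1 (0.09) than in AGS (-0.06). How many of all rows had a higher change in MKN1 was not counted. In the values as deposited every member had a less negative or higher change in MKN1 than in AGS, by 0.07 for HMMR up to 1.49 for BIRC5 and 4.10 for the second CKS1B row. This turned for HMMR, CKAP5 and TOP2A with libraries rescaled to a common total (-0.10, -0.06 and -0.05) and after centring on the median gene (-0.08, -0.05 and -0.03), and for HMMR and CKAP5 after quantile normalization (-0.05 and -0.04). With 1 library per group the difference between the lines' changes could not be tested.

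**Figure D2:**
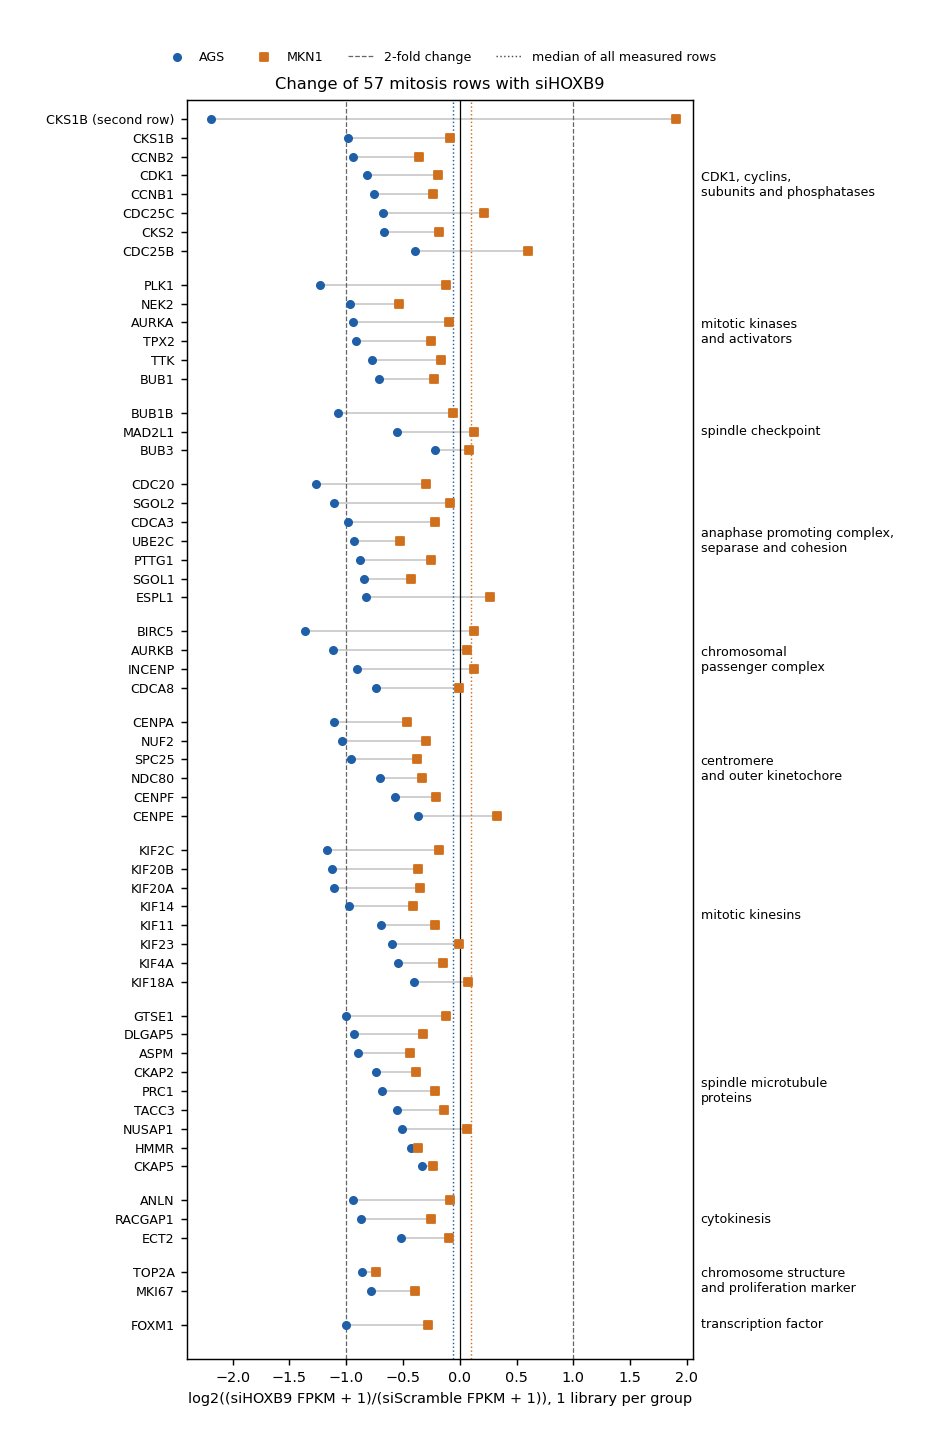
Log2 change with siHOXB9 (x axis, 1 FPKM added, 1 library per group) of each member row, grouped by role, in AGS (blue circles) and MKN1 (orange squares). Dashed lines mark a 2-fold change and dotted lines the median of all measured rows of a line (-0.06 in AGS, 0.09 in MKN1). All AGS points lie left of 0, and 45 of the 57 MKN1 points do.

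Cyclin B with CDK1 is the kinase that drives entry into mitosis. CCNB1, encoding cyclin B1, was at 173 FPKM with siScramble and 102 with siHOXB9 in AGS, and at 241 and 205 in MKN1. CCNB2, encoding cyclin B2, was at 53.3 and 27.3 FPKM in AGS and at 52.6 and 40.8 in MKN1. CDK1, the kinase subunit, was at 60.6 and 33.9 FPKM in AGS and at 84.1 and 73.6 in MKN1. For these 3 genes the siHOXB9 library was the lower in each line, and their log2 changes lay within 0.18 of each other in AGS and within 0.17 in MKN1.

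CKS1B and CKS2 encode the small subunits that bind cyclin-dependent kinases. CKS2 had the highest level of all members in every library, at 471 FPKM and 297 FPKM in AGS and 455 and 401 in MKN1, with siScramble first. The first CKS1B row was at 315 and 159 FPKM in AGS and at 336 and 316 in MKN1. Its log2 change was -0.98 in AGS and -0.09 in MKN1, so in MKN1 it stood close to 0 and in AGS close to the 2-fold limit.

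The second row named CKS1B followed another pattern. It was at 31.8 FPKM and 6.17 FPKM in AGS and at 6.51 and 27.1 in MKN1, so siHOXB9 was the lower library in AGS and the higher in MKN1 (log2 -2.19 and 1.90). The table does not say which gene this row is. GENCODE release 29 has 1 gene named CKS1B and 6 pseudogenes named after it, and reads of near-identical copies could be assigned to either row, so the value of this row as a measure of CKS1B is uncertain. Without it, the 2-fold rule holds 12 members in AGS and none in MKN1.

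CDC25B and CDC25C encode phosphatases that activate CDK1. CDC25B was at 145 and 110.4 FPKM in AGS and at 95.6 and 145.9 in MKN1. The siHOXB9 library was thus the lower in AGS (log2 -0.39) and the higher in MKN1 (log2 0.60), the highest MKN1 change among members other than the second CKS1B row. CDC25C was at 7.53 and 4.32 FPKM in AGS and at 5.27 and 6.25 in MKN1, with the same pair of directions at low levels. It shares exon bases with FAM53C on the other strand.

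The mitotic kinases and their activators were lower in both lines, 6 of 6 in each, with medians of -0.93 in AGS and -0.20 in MKN1. PLK1, the polo kinase of spindle assembly and mitotic entry, was at 81.1 and 34.0 FPKM in AGS (log2 -1.23) and at 133 and 122 in MKN1 (log2 -0.12). AURKA, the Aurora kinase of the spindle poles, was at 90.4 and 46.7 FPKM in AGS and at 87.9 and 82.1 in MKN1. TPX2, which activates AURKA on microtubules, was at 63.0 and 33.0 FPKM in AGS and at 100.6 and 84.2 in MKN1. Kinase and activator had nearly equal changes in AGS, -0.94 and -0.91, and differed by 0.16 in MKN1.

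NEK2, a kinase of centrosome separation, was among the members with the most negative changes in MKN1. It was at 31.1 and 15.4 FPKM in AGS (log2 -0.97) and at 26.0 and 17.7 in MKN1 (log2 -0.53). TTK, the kinase that starts checkpoint signalling at kinetochores, was at 15.8 and 8.86 FPKM in AGS and at 14.3 and 12.7 in MKN1. BUB1, a kinetochore checkpoint kinase, was at 45.0 and 27.2 FPKM in AGS and at 32.1 and 27.2 in MKN1.

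The spindle checkpoint, which holds cells in metaphase until all chromosomes are attached, had the smallest median change of the role groups in AGS (-0.55, 3 genes), and its members differed widely. BUB1B, encoding the checkpoint protein BubR1, was at 35.1 and 16.2 FPKM in AGS (log2 -1.07) and at 59.4 and 57.0 in MKN1 (log2 -0.06). It shares exon bases with the readthrough gene BUB1B-PAK6 on the same strand. MAD2L1, encoding MAD2, was at 46.9 and 31.7 FPKM in AGS and at 48.9 and 53.4 in MKN1. BUB3, the checkpoint protein that binds BUB1 and BubR1, was at 169 and 145 FPKM in AGS and at 157 and 167 in MKN1 (log2 0.08, turning to -0.01 after centring on the median gene and to -0.004 after quantile normalization). Its AGS change of -0.22 was the smallest of all members, and 30.6% of measured AGS rows had a more negative one.

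The genes of the anaphase-promoting complex pathway, of separase and of centromeric cohesion were lower in AGS in 7 of 7 and in MKN1 in 6 of 7. CDC20, which activates the ligase at anaphase, was at 208 and 85.8 FPKM in AGS (log2 -1.27) and at 340 and 276 in MKN1 (log2 -0.30). UBE2C, the ubiquitin-conjugating enzyme of the ligase, was at 246 and 128 FPKM in AGS (log2 -0.93) and at 202 and 140.1 in MKN1 (log2 -0.52). PTTG1, encoding the separase inhibitor securin, was at 137 and 74.4 FPKM in AGS and at 229 and 192 in MKN1. ESPL1, encoding separase, was at 16.2 and 8.70 FPKM in AGS (log2 -0.82) and at 18.7 and 22.7 in MKN1 (log2 0.27), so in MKN1 securin and separase went in opposite directions.

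The shugoshins protect centromeric cohesin until anaphase. SGOL1 was at 9.54 and 4.87 FPKM in AGS (log2 -0.84) and at 13.3 and 9.62 in MKN1 (log2 -0.43). SGOL2 was at 6.48 and 2.47 FPKM in AGS (log2 -1.11) and at 4.88 and 4.55 in MKN1 (log2 -0.08). SGOL2 had the more negative change in AGS and SGOL1 in MKN1. CDCA3, an adaptor that promotes degradation of WEE1, was at 56.8 and 28.2 FPKM in AGS and at 70.4 and 60.4 in MKN1.

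The chromosomal passenger complex, made of a kinase and its targeting subunits, corrects faulty attachments and later guides cytokinesis. It had the most negative median of the role groups in AGS with more than 1 gene (-1.01) and the highest in MKN1 (0.09). BIRC5, encoding survivin, was at 50.7 and 19.1 FPKM in AGS (log2 -1.36), where 0.709% of measured rows had a more negative change, and at 72.6 and 79.4 in MKN1 (log2 0.13). AURKB, the kinase, was at 85.4 and 38.9 FPKM in AGS (log2 -1.11) and at 114 and 119 in MKN1 (log2 0.06). INCENP, the scaffold, was at 32.6 and 17.0 FPKM in AGS (log2 -0.90) and at 33.1 and 36.2 in MKN1 (log2 0.13). CDCA8, encoding borealin, was at 19.8 and 11.4 FPKM in AGS (log2 -0.74) and at 20.98 and 20.91 in MKN1 (log2 -0.005). The 4 subunits thus spread over 0.62 on the log2 scale in AGS and over 0.13 in MKN1. The MKN1 direction of AURKB turns to lower with each library rescaled to a common total (-0.01), after centring on the median gene (-0.03) and after quantile normalization (-0.04), while BIRC5 and INCENP stayed above 0 under each of these.

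At the centromere and outer kinetochore, 6 of 6 genes were lower in AGS and 5 of 6 in MKN1. CENPA, the centromeric histone H3 variant, was at 34.2 and 15.3 FPKM in AGS (log2 -1.11) and at 25.3 and 18.0 in MKN1 (log2 -0.46). It shares exon bases with SLC35F6 on the same strand. The NDC80 complex binds microtubule ends, and 3 of its subunits are members. NDC80 was at 16.3 and 9.66 FPKM in AGS and at 24.2 and 19.0 in MKN1. NUF2 was at 33.8 and 15.9 FPKM in AGS (log2 -1.04) and at 22.7 and 18.3 in MKN1, and SPC25 was at 17.7 and 8.61 FPKM in AGS and at 18.1 and 13.7 in MKN1. The changes of the 3 subunits lay within 0.34 of each other in AGS and within 0.08 in MKN1.

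The large kinetochore proteins had the smallest changes of this group in AGS. CENPF was at 7.88 and 4.98 FPKM in AGS (log2 -0.57) and at 10.05 and 8.57 in MKN1 (log2 -0.21). CENPE, a kinetochore motor of the kinesin family, was at 6.93 and 5.15 FPKM in AGS (log2 -0.37) and at 4.40 and 5.78 in MKN1 (log2 0.33). For CENPE the siHOXB9 library was the lower in AGS and the higher in MKN1.

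Kinesins are microtubule motors, and 8 mitotic ones are members. All 8 were lower in AGS and 7 in MKN1, with medians of -0.83 and -0.20. KIF2C, a microtubule depolymerase at centromeres, was at 44.3 and 19.2 FPKM in AGS (log2 -1.17) and at 45.5 and 39.9 in MKN1. KIF20A, a motor of the central spindle, was at 20.1 and 8.82 FPKM in AGS (log2 -1.11) and at 44.6 and 34.7 in MKN1 (log2 -0.35). KIF20B was at 14.1 and 5.95 FPKM in AGS (log2 -1.12) and at 9.23 and 6.91 in MKN1 (log2 -0.37). KIF20A and KIF20B had nearly equal changes within each line.

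The other kinesins did not reach the 2-fold rule in either line. KIF14, which acts in cytokinesis, was at 6.80 and 2.96 FPKM in AGS (43.6% of control, log2 -0.98) and at 6.56 and 4.68 in MKN1 (log2 -0.41). With 0.1 FPKM added instead of 1 FPKM, the AGS change of KIF14 was -1.17, past the rule. KIF11, which pushes the spindle poles apart, was at 11.2 and 6.57 FPKM in AGS (log2 -0.69) and at 11.4 and 9.69 in MKN1. KIF4A, a chromosome-bound motor, was at 10.1 and 6.60 FPKM in AGS and at 15.5 and 13.9 in MKN1. KIF23 was at 17.9 and 11.5 FPKM in AGS and at 39.93 and 39.85 in MKN1, where its log2 change of -0.003 was the closest to 0 of all members. KIF18A, which dampens chromosome movement at metaphase, was at 5.93 and 4.25 FPKM in AGS (log2 -0.40) and at 6.93 and 7.33 in MKN1 (log2 0.07, turning to -0.02 after centring on the median gene).

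Of the 9 spindle microtubule proteins all were lower in AGS and 8 in MKN1, none by the 2-fold rule. GTSE1, which binds microtubule plus ends, came closest in AGS at 28.9 and 13.96 FPKM (48.3% of control, log2 -0.998 with 1 FPKM added and -1.04, past the rule, with 0.1 FPKM added) and was at 26.3 and 24.1 in MKN1. DLGAP5, which stabilizes kinetochore fibres, was at 32.9 and 16.8 FPKM in AGS (log2 -0.93) and at 17.3 and 13.6 in MKN1. ASPM, a spindle pole protein, was at 11.4 and 5.63 FPKM in AGS (49.6% of control, log2 -0.90) and at 5.72 and 3.97 in MKN1 (log2 -0.43). CKAP2 was at 18.7 and 10.8 FPKM in AGS and at 15.4 and 11.6 in MKN1. These 4 genes were lower with siHOXB9 in both lines.

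PRC1, which crosslinks antiparallel microtubules of the central spindle, was at 61.1 and 37.6 FPKM in AGS (log2 -0.68) and at 150.2 and 129 in MKN1 (log2 -0.22). TACC3, which with CKAP5 stabilizes kinetochore fibres, was at 63.3 and 42.8 FPKM in AGS and at 65.0 and 59.0 in MKN1. NUSAP1, a microtubule bundling protein, was at 78.5 and 54.9 FPKM in AGS (log2 -0.51) and at 92.1 and 96.5 in MKN1 (log2 0.07), where its direction turns to lower under common-total rescaling (-0.01), centring (-0.03) and quantile normalization (-0.05). HMMR was at 25.2 and 18.4 FPKM in AGS (log2 -0.43) and at 32.3 and 24.9 in MKN1 (log2 -0.36). CKAP5, a microtubule polymerase, was at 35.7 and 28.0 FPKM in AGS (log2 -0.34) and at 29.6 and 25.1 in MKN1 (log2 -0.23). The changes of HMMR and CKAP5 differed between the lines by 0.07 and 0.10 as deposited, and in the opposite direction under each of the 3 scalings given above.

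Cytokinesis genes were lower in both lines, 3 of 3 in each. RACGAP1, which with the kinesin KIF23 forms the centralspindlin complex, was at 54.4 and 29.4 FPKM in AGS (log2 -0.87) and at 85.7 and 71.7 in MKN1 (log2 -0.26). ECT2, the exchange factor that centralspindlin recruits to activate RhoA, was at 51.9 and 35.9 FPKM in AGS (log2 -0.52) and at 39.3 and 36.7 in MKN1 (log2 -0.10). ANLN, encoding the scaffold anillin, was at 37.6 and 19.2 FPKM in AGS (log2 -0.94) and at 73.1 and 69.0 in MKN1 (log2 -0.08). Both centralspindlin subunits were lower by less in MKN1 than in AGS, and KIF23 by less than RACGAP1 in each line.

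TOP2A, topoisomerase II alpha, which untangles sister chromatids, had nearly the same change in both lines. It was at 46.4 and 25.1 FPKM in AGS (log2 -0.86) and at 42.8 and 25.2 in MKN1 (log2 -0.74), the most negative MKN1 change of the members, below which 3.50% of measured MKN1 rows lay. MKI67, encoding the proliferation marker Ki-67, was at 8.42 and 4.50 FPKM in AGS (log2 -0.78) and at 4.93 and 3.50 in MKN1 (log2 -0.40). FOXM1, the transcription factor of the G2 and M wave, was at 43.8 and 21.3 FPKM in AGS (log2 -1.005, just past the rule) and at 70.04 and 57.4 in MKN1 (log2 -0.28).

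**Figure D3:**
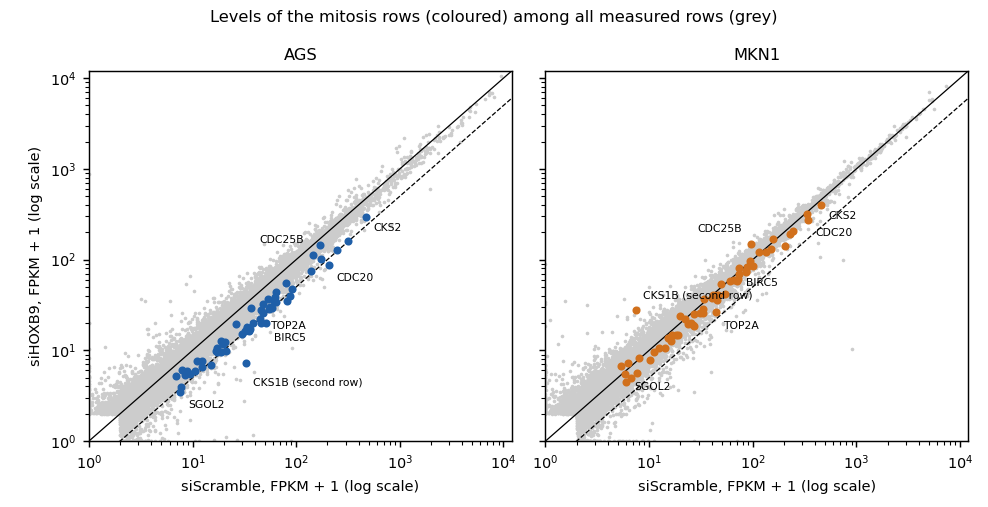
FPKM + 1 with siHOXB9 (y axis) against siScramble (x axis), both on log scales, for members (coloured) and all other rows measured in that line (grey), in AGS (left) and MKN1 (right). The solid line marks equal levels and the dashed line a 2-fold lower level. In AGS the members lie as a band below the solid line from KIF18A (5.93 FPKM with siScramble) to CKS2 (471 FPKM), and in MKN1 the band lies closer to it.

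The levels of the members kept much the same order in both lines. With siScramble they ran from 5.93 FPKM (KIF18A) to 471 FPKM (CKS2) in AGS, with a median of 35.1, and from 4.40 (CENPE) to 455 FPKM (CKS2) in MKN1, with a median of 39.3. All rows at 1 FPKM or more had medians of 15.0 and 12.9 FPKM. Across the 56 first rows, the log2 levels of the control libraries had a Pearson's r of 0.95 between the lines, and the log2 changes an r of 0.34 and a Spearman's rho of 0.28. These are descriptions across genes, which share their libraries and are not independent replicates.

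Over both lines, a limma fit with terms for line and siRNA asked which changes were repeated. No member passed an adjusted p of 0.05 (Benjamini-Hochberg over 13758 rows tested), and 1 row of the table did (0.00727%). At an unadjusted p under 0.05 there were 28 of 57 members, against 7.12% of all rows, but 4 members with no filter on low values and 0 with no term for the line. TOP2A came closest, with a log2 estimate of -0.80 (SE 0.18), an unadjusted p of 0.00246 and a limma adjusted p of 0.370, and it was lower in both lines. UBE2C followed at -0.73 (SE 0.18, limma adjusted p 0.462) and NEK2 at -0.75 (SE 0.20, limma adjusted p 0.513). CDC20 had a larger estimate than either, -0.78, with a larger SE of 0.24 because its changes in the lines differed more (limma adjusted p 0.616). With 1 residual degree of freedom, the SE of a gene rests on how far the lines disagree and on the variance prior.

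The same fit compared the levels of the lines, averaged over both siRNAs. Here 11 of 57 members were higher in MKN1 with an adjusted p under 0.05 and a difference of at least 1 on the log2 scale, where 16.2% of all rows tested were, so this share (19.3%) was close to the background. None was lower in MKN1 by this rule, where 20.9% of all rows were. The 11 were PRC1, KIF20A, KIF23, ANLN, PLK1, BIRC5, BUB1B, CDC20, PTTG1, FOXM1 and AURKB. All 11 were at least 1 higher in MKN1 between the siHOXB9 libraries, but between the siScramble libraries 3 were: PRC1 (1.28), KIF23 (1.11) and KIF20A (1.11). BIRC5 was 0.51 higher in MKN1 with siScramble and 2.0 higher with siHOXB9, and AURKB 0.41 and 1.59. The largest differences in the fit were those of PRC1 (log2 1.52, SE 0.19, limma adjusted p 0.000414) and KIF20A (1.49, SE 0.23, limma adjusted p 0.00123), followed by KIF23 (1.41) and ANLN (1.37). The most negative differences were ASPM (-0.65), DLGAP5 (-0.59) and MKI67 (-0.48), none of them past the size limit. With no filter on low values no member passed.

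**Figure D4:**
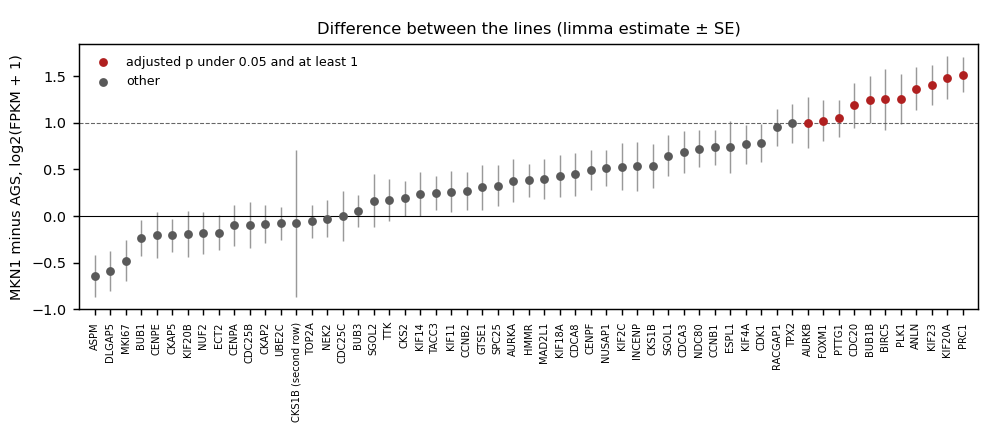
Difference in level between the lines (y axis, MKN1 minus AGS, log2 of FPKM + 1, limma estimate with its SE as bars) for each member row, ordered by size. Red points are the 11 members with an adjusted p under 0.05 and a difference of at least 1, and all of them are higher in MKN1.

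Other genes of mitosis, taken from 6 lists and not among the members, were mostly lower in AGS as well, with a smaller median, and had a median near 0 in MKN1. Of their 82 rows 74 were lower in AGS, with a median of -0.44 and 11 lower by the 2-fold rule, where 2.21% of all measured rows were. In MKN1 41 of 81 measured rows were lower, with a median of -0.01, which is below the 0.09 of all rows, and 2 were lower by the 2-fold rule, a share close to the 1.94% of all measured rows. Those 2 were CCNA2, encoding cyclin A2 (log2 -1.47 in AGS and -1.70 in MKN1), and HAUS4, an augmin subunit (-1.13 and -1.12). The members and these lists were not tested against each other.

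By list, all 8 condensin genes were lower in AGS (median -0.60), with NCAPD2 at 62.8 and 30.4 FPKM, and 6 of 8 in MKN1 (median -0.07). Of 28 further centromere and kinetochore genes 27 were lower in AGS (median -0.54), 8 of them by 2-fold, among them SKA1 (log2 -1.25) and CASC5, the scaffold of the outer kinetochore (-1.12). In MKN1 14 of these 28 were lower (median -0.01), with CENPN at -0.76 and CASC5 at -0.68. Of 18 subunits and regulators of the anaphase-promoting complex 15 were lower in AGS (median -0.32) and 10 in MKN1 (median -0.11). The largest AGS change there was that of UBE2S, which works after UBE2C on the same substrates (635 and 337 FPKM, log2 -0.91), and the largest in MKN1 that of CDC23 (23.5 and 11.4 FPKM, log2 -0.98).

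Of 10 cohesin genes 9 were lower in AGS (median -0.36) and 7 in MKN1 (median -0.08). Of 8 augmin genes 6 were lower in AGS (median -0.54) and 2 in MKN1 (median 0.12). Of the genes that control entry into mitosis through CDK1, 9 of 10 were lower in AGS (median -0.55) and 2 of 9 in MKN1 (median 0.15). In MKN1 CDC25A, a further CDK1 and CDK2 phosphatase, was at 37.3 FPKM with siScramble and 66.9 with siHOXB9 (log2 0.83), the direction also seen for its paralogs CDC25B and CDC25C.

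S phase genes are the cell cycle group that precedes these in time. They were lower in AGS like the members and had a median near 0 in MKN1. Of 37 S phase genes 37 were lower in AGS (median -0.69), and 15 of 37 in MKN1 (median 0.04), where 45 of 57 members were lower. MCM2, a subunit of the replicative helicase, was at 53.0 and 26.2 FPKM in AGS and at 220.4 and 261 in MKN1. This difference between the lists is given as counts and medians and was not tested.

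**Figure D5:**
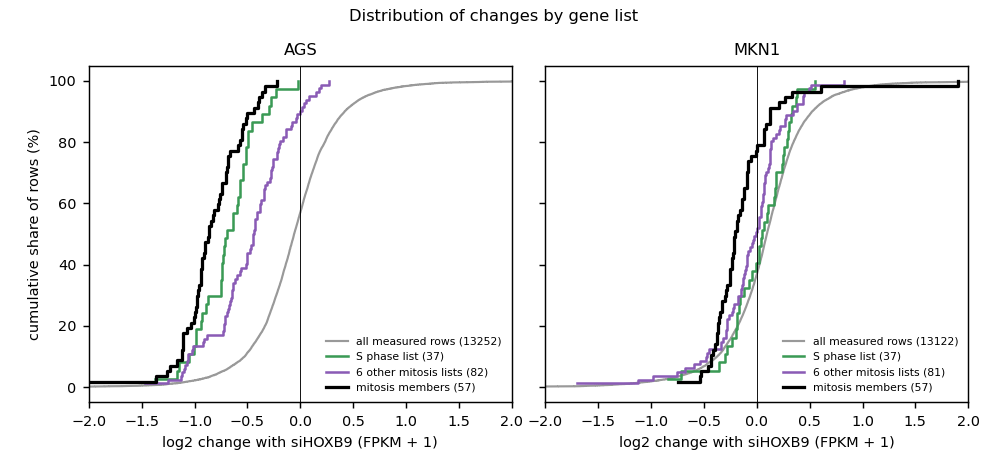
Cumulative share of rows (y axis, percent) against log2 change with siHOXB9 (x axis) in AGS (left) and MKN1 (right), for members (black), S phase genes (green), the 6 other mitosis lists (purple) and all measured rows (grey). The median of the members lies at -0.87 in AGS, near that of S phase genes (-0.69), and at -0.21 in MKN1, where that of S phase genes is 0.04.

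Members with and without the promoter letters shown above had close medians. The 35 members with the CHR letters had a median of -0.82 in AGS and -0.21 in MKN1, and the 13 without had -0.84 and -0.23. For the CCAAT letters the medians were -0.83 in 40 members with and -0.84 in 8 without in AGS, and -0.22 and -0.16 in MKN1. Of the 10 promoter-matched members lower by 2-fold in AGS, 6 held the CHR letters.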

How the data were processed

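RNA of 4 libraries was measured, 1 per line and siRNA, from a deposited table of FPKM values that the authors computed. Builds GRCh38 and hg38 come from the submitters' processing notes. The aligner, counter, annotation and any strand-keeping step were not given in the sources used here, so overlapping genes may not be separable: 20 members share exon bases with another gene. Of these, 4 (BUB1B, CENPA, NUSAP1 and PRC1) share them with a gene on the same strand. KIF20A shares them with BRD8 and CDC23 on the other strand. Columns were matched by their names, and the title of 1 library spells MKN1 as MNK1. Values were not rescaled. Members, lists, rules and most alternatives were chosen with earlier results of these data known. All members were named, by role. Depth was estimated from low FPKM values of genes with 1 transcript, of which 63.5% to 66.0% per library lay within 0.05 fragments of a whole number, so it is approximate.

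Changes used a pseudocount of 1 FPKM among rows with at least 1 FPKM in either library, with no test within a line. limma 3.58.1 in R 4.3.3 was fitted to log2(FPKM + 1) with an intensity trend over rows reaching 1 FPKM in 2 libraries or more, two-sided, with Benjamini-Hochberg adjustment at 0.05, and was tested on simulated data. Nothing says the libraries came from repeated cultures. RefSeq promoters (GRCh38.p14) and GENCODE release 29 were joined by symbol, SGOL1 and SGOL2 as SGO1 and SGO2. The settings varied were the pseudocount (0.1 FPKM), the filter (none, or 5 FPKM), rescaling, centring, quantile normalization, a 1.5-fold rule, other variance settings and no line term. Leaving out the second CKS1B row was added after seeing the data. Protein sequences were not analysed here.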

Additional observations from a re-analysis of the deposited data

Results flagged for a closer look

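With 1 library per group, 12 rows were lower with siHOXB9 in AGS and higher in MKN1, and these differences between the lines were not tested. Of 13252 rows measured in AGS 7554 (57.0%) were lower there, and of 11547 rows measured in both lines 2758 (23.9%) were lower in both. By these counts the same pair of directions was at least as common among all rows measured in both lines as among the members. The 12 therefore do not exceed the background. The change in MKN1 exceeded that in AGS by 4.10 on the log2 scale for the second CKS1B row, by 1.49 for BIRC5, by 1.18 for AURKB, by 1.09 for ESPL1 and by 1.03 for INCENP. For CDC25B and CDC25C, the CDK1 phosphatases, the excess was 1.00 and 0.89. For the kinetochore motor CENPE it was 0.70, for the checkpoint gene MAD2L1 0.67, for NUSAP1 0.57, for KIF18A 0.47 and for BUB3 0.31. In 4 of the 12 (AURKB, NUSAP1, BUB3 and KIF18A) the MKN1 change was under 0.1 and turned to lower under at least 1 of rescaling, centring and quantile normalization.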

How the results depend on the processing

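All member medians kept their sign under every alternative run. The AGS median of -0.87 became -0.89 with a pseudocount of 0.1 FPKM, -0.77 with libraries rescaled to a common total, -0.81 after centring on the median gene, -0.83 after quantile normalization and -0.86 without the second CKS1B row. The MKN1 median of -0.21 became -0.22, -0.28, -0.30 and -0.28 under the first 4 of these. The AGS count of 13 past the 2-fold rule ran from 10 with rescaling to 18 with the smaller pseudocount. The share of all measured rows past a 1.5-fold rule was not counted. By this rule 45 members passed in AGS and 3 in MKN1 (TOP2A lower, CDC25B and the second CKS1B row higher). Without that row 0 passed the 2-fold rule in MKN1. Over both lines no member passed limma under any of the 8 alternatives, where the lowest adjusted p ran from 0.301 to 1.000. Between the lines 9 to 12 members passed, except 0 with no filter on low values. No paired analysis was possible because the labels give no replicate numbers, beyond the pairing of libraries by line that the line term of the fit already makes. At 1 library per group, small MKN1 changes cannot be told from variation between cultures.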

Other observations

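The regulators of the mitotic wave, among the genes of DREAM, MuvB and the E2F family, were lower in AGS in 13 of 18 measured rows (median -0.23) and in MKN1 in 6 of 18 (median 0.09). Among all measured rows 57.0% were lower in AGS and 36.9% in MKN1, with medians of -0.06 and 0.09, so the MKN1 values were close to the background. MYBL2, encoding B-MYB, was at 138 and 83.7 FPKM with siScramble and siHOXB9 in AGS (log2 -0.71) and at 131 and 132 in MKN1 (log2 0.01). LIN9, a MuvB subunit, was lower in both lines (log2 -0.68 and -0.39). E2F1 was at 22.9 and 14.1 FPKM in AGS and at 34.9 and 43.7 in MKN1, and the repressor E2F7 at 2.88 and 1.23 in AGS and 2.91 and 4.49 in MKN1. RB1, the retinoblastoma gene, was at log2 0.16 and 0.42.

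Among 7 measured G1 cyclins and kinases, 6 were lower in AGS and 4 in MKN1. CDK6, a G1 kinase, was at 26.7 and 15.3 FPKM in AGS (log2 -0.77) and at 24.9 and 11.6 in MKN1 (log2 -1.04), and CCNE1, encoding cyclin E1, at 29.1 and 16.8 in AGS (log2 -0.76) and 10.8 and 6.21 in MKN1 (log2 -0.71). CDK2 was lower by 2-fold in AGS (63.7 and 27.5 FPKM) and at log2 -0.16 in MKN1. CCND1, encoding cyclin D1, was the only one not lower in AGS, at 241 and 283 FPKM in AGS (log2 0.23) and 195 and 310 in MKN1 (log2 0.66), where CDK4 (log2 0.06) and CCND3 (log2 0.03) were not lower either. No gene named in these paragraphs passed limma over both lines at an adjusted p of 0.05.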
